A study of Mus musculus with 6 samples.

Results

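The genes described here are 42 members of the TGF-beta, activin and BMP signalling pathway, taken as the array spots that are no controls and whose gene name in the files is exactly one of the member names. They were read on 57 of the 55681 probes of the array, and 39 of the 42 gave a signal well above background on at least 3 of the 6 arrays and were tested, among 32103 genes tested in all. The members fall into 13 ligands, 11 receptors, 7 extracellular regulators, 7 Smads and 4 Id genes. The series asks how expression in muscle stem cells of uninjured muscle differs between young and adult mice.

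The samples were satellite cells, which are muscle's resident stem cells, from untreated male C57BL/6 mice with no genetic change named in the labels. They were sorted for integrin alpha7 and CD34 and against CD31, CD45, CD11b and Sca1. The young group held 3 samples, from mice of 3, 2 and 3 months for replicates 1, 2 and 3, and the adult group held 3 samples from mice of 6 months. The labels call them biological replicates but give no number of mice per sample, and the RNA was amplified before labelling, so p-values measure the spread between these 6 samples.

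The TGF-beta superfamily consists of secreted dimers that bind a pair of type II and type I receptor kinases, which phosphorylate Smad proteins that enter the nucleus together with Smad4. TGF-beta, activin and myostatin act mainly through Smad2 and Smad3 and are known in muscle for restraining myoblast proliferation and differentiation, while BMPs act through Smad1 and Smad5 and induce the Id genes, whose proteins block MyoD-type transcription factors. Secreted proteins such as noggin, gremlin and follistatin trap the ligands, and latency proteins hold TGF-beta in the matrix until it is released.

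Of the 39 members tested, 3 were higher and 5 lower in adult than in young cells (limma, Benjamini-Hochberg adjusted p under 0.05 over all 32103 genes), and 31 did not pass. Bmp5, Bmp2 and Id1 rose, and Tgfb2, Tgfb3, Inha, Fstl1 and Smad5 fell. In the background of all genes tested, 20.1% were called higher and 8.43% lower, against 7.69% and 12.8% of the members. Of 15799 genes named as protein-coding in the GRCm38.p6 RefSeq table, 15.1% were higher and 12% lower, so the members' share of lower calls lay near that of protein-coding genes and their share of higher calls below it, which was not tested. The median difference of the tested members was -0.26 (log2, adult minus young), against 0.31 over all genes and -0.02 over protein-coding genes. All levels are log2 of the processed signal relative to the 75th percentile of the same array, the values of a group are given in the order of its replicates 1, 2 and 3, and differences are adult minus young on that scale.

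The arrays of the groups did not overlap for 21 of the 39 members, against 55.5% of all genes. Of these, by the probe used for each gene, 7 members (17.9%) were higher and 14 (35.9%) lower on every adult array. Over all genes 34.0% lay wholly higher and 21.6% wholly lower, and over protein-coding genes 26.5% and 28.3%. Of the 55681 probes, 41528 to 45926 were well above background on the young arrays and 47554 to 49957 on the adult arrays, so detection moved with the group, and its part in the results was not tested.

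**Figure D1:**
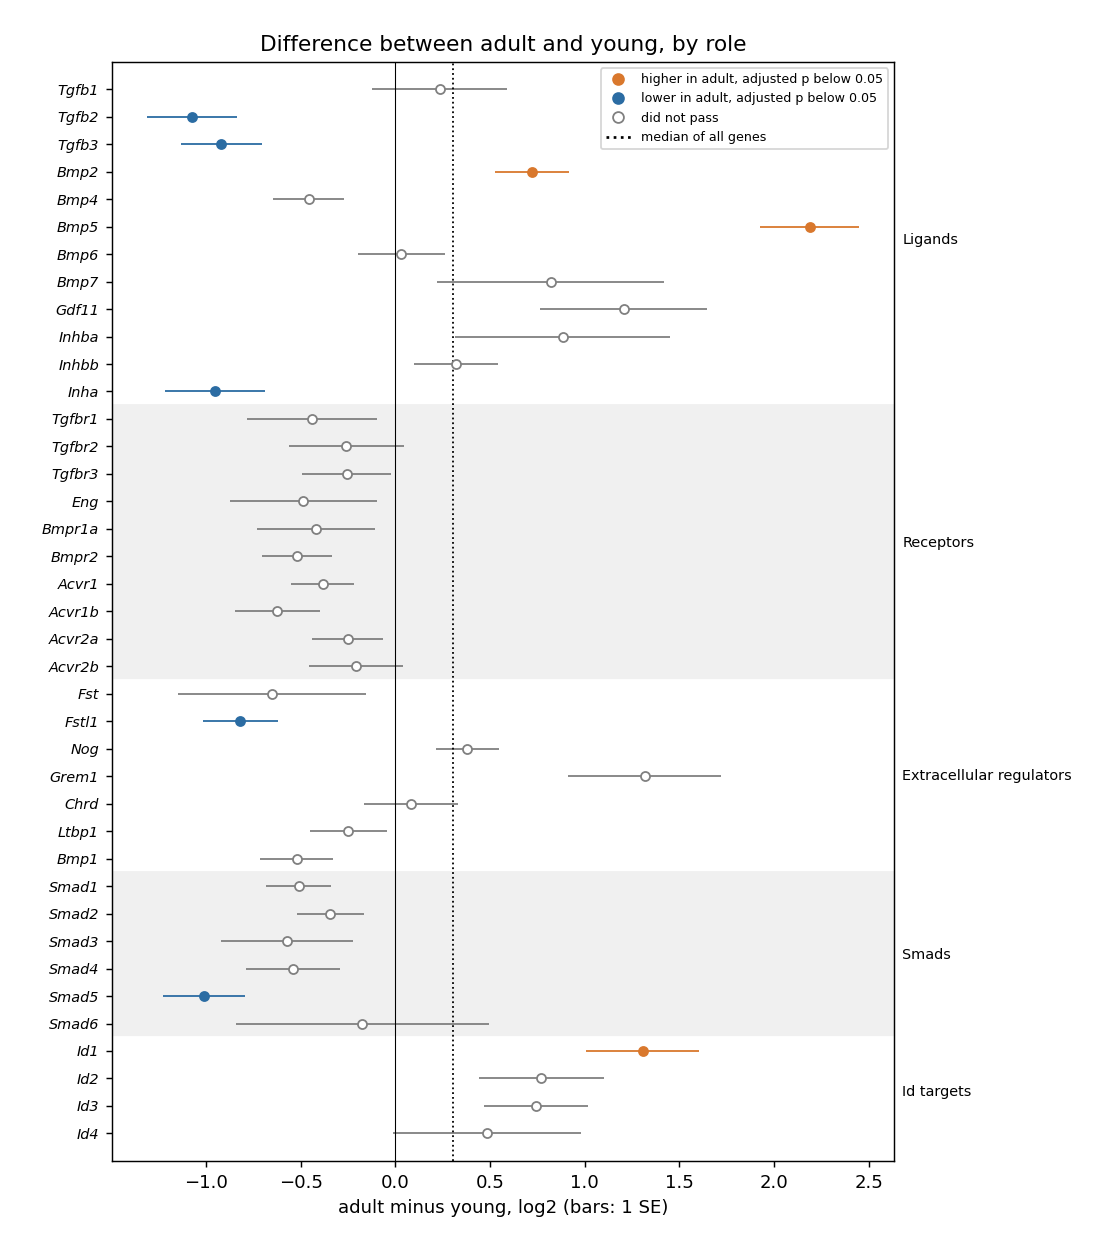
Difference between adult and young (x axis, log2, points with bars of 1 SE, n = 3 arrays each) for the 39 tested members, grouped by role. Filled points passed the adjusted threshold of 0.05 (3 higher, 5 lower) and open points did not, and the dotted line marks the median of all genes at 0.31. All 10 receptors and all 6 Smads lie left of 0 and all 4 Id genes right of it with this scaling. Each gene is shown by its brightest probe, and another Smad4 probe, not plotted here, gave 0.97. With other scalings the signs of Acvr2b, Id2 and Id4 turn.

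Among the ligands 2 rose, 3 fell and 7 of the 12 tested did not pass, against 20.1% higher and 8.43% lower over all genes. The largest difference of any member belonged to Bmp5, a BMP of skeletal and cartilage development. It read -3.79, -3.64 and -3.15 in the young samples and -1.55, -1.45 and -1.02 in the adult samples. Every adult array thus lay above every young one, by more than the spread within either group, and the probe was well above background on all 6 arrays. Bmp5 was 4.56-fold higher in adult cells (log2 difference 2.19 ± 0.26 SE, limma adjusted p = 0.0143). The call held in 17 of 19 alternative settings. It was lost without adult replicate 3 (adjusted p = 0.0543) and with replicate number as a block (0.0544), and the difference was 1.04 after another background correction (normexp), with quantile normalization. The series matrix values are nearly identical to that correction, yet both count among the 19. Its probe lies at mm9 chr9:75746444-75746503.

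Bmp2, a BMP ligand that induces bone and cartilage, also rose. Its levels were -2.09, -2.27 and -2.09 in the young samples and -1.18, -1.58 and -1.53 in the adult samples, and the groups did not overlap. The rise was 1.65-fold (0.72 ± 0.19 SE, limma adjusted p = 0.0424), near the threshold, and it passed in 4 of 19 alternatives. With each array left out in turn the adjusted p lay between 0.0811 and 0.0970. The difference shrank to 0.18 with median scaling, 0.27 with quantile normalization, 0.40 with cyclic loess and 0.20 with normexp, and did not pass with any of these. Bmp2 was read at mm9 chr2:133388260-133388319.

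**Figure D2:**
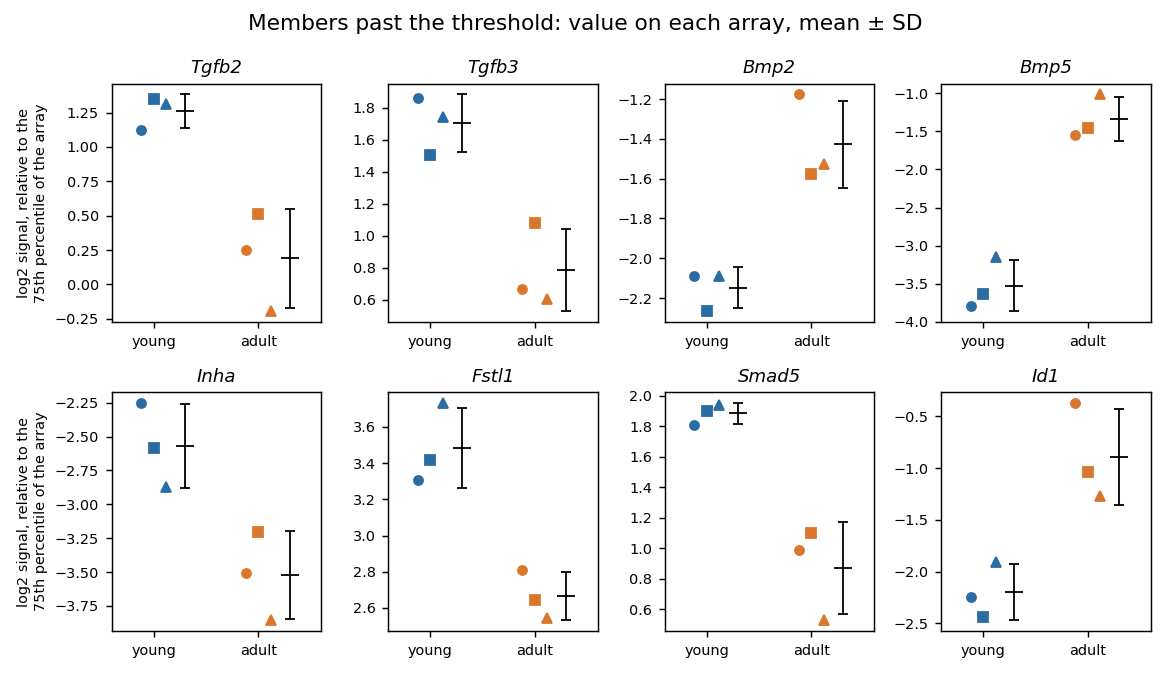
Levels of the 8 members past the threshold on each array (y axis, log2 signal relative to the array's 75th percentile, scaled per panel, circle, square and triangle for replicates 1, 2 and 3), with the mean and SD of each group beside the points (n = 3). In each panel the young and the adult arrays do not overlap. Bmp5 parts the groups most widely, from a young mean of -3.53 to an adult mean of -1.34.

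Tgfb2 and Tgfb3, isoforms of TGF-beta, fell together, whereas Tgfb1 did not pass. Tgfb2 stood at 1.12, 1.35 and 1.31 in the young samples and at 0.25, 0.51 and -0.20 in the adult samples. The lowest young array was thus above the highest adult one. This was a 2.10-fold lower level (difference -1.07 ± 0.24 SE, limma adjusted p = 0.0302) at mm9 chr1:188447534-188447593. A second Tgfb2 probe at chr1:188449333-188449392 gave -1.34 ± 0.20 SE (adjusted p = 0.0200 in the fit of single probes). Tgfb3 read 1.86, 1.51 and 1.74 on the young arrays and 0.67, 1.08 and 0.61 on the adult ones, in the order of their replicate numbers. Tgfb3 was 1.89-fold lower (-0.92 ± 0.22 SE, limma adjusted p = 0.0330) at mm9 chr12:87397804-87397863. With single arrays left out, the adjusted p of Tgfb2 lay between 0.0565 and 0.0768 and its difference between -1.23 and -0.88. In those smaller fits calls over all genes fell too, from 6437 higher and 2706 lower to between 263 and 6430 higher and between 17 and 1259 lower. The adjusted p of Tgfb3 lay between 0.0422 and 0.0919, with a difference between -1.06 and -0.83, and of the 6 fits only the one without young replicate 2 kept its call. Tgfb1, which is also made by many immune and stromal cells, differed by 0.23 ± 0.36 SE (limma adjusted p = 0.614), and 1 adult array (-1.54) stood above the other 5 (-2.81 to -2.32).

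Inha encodes the alpha subunit of inhibin, which pairs with a beta subunit to oppose activin. It read -2.25, -2.58 and -2.87 in the young samples and -3.51, -3.20 and -3.85 in the adult samples. The groups were apart, and Inha was 1.93-fold lower in adult cells (-0.95 ± 0.26 SE, limma adjusted p = 0.0447, mm9 chr1:75506675-75506734). Its difference lay between -1.87 and -0.78 over 19 alternatives, and the adjusted p between 0.0670 and 0.113 with single arrays left out. The activin beta subunits Inhba (0.88 ± 0.57 SE) and Inhbb (0.32 ± 0.22 SE) did not pass. Without young replicate 2, whose level (-2.38) lay above those of the other young samples, Inhba differed by 1.48 and passed (limma adjusted p = 0.0385).

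The other ligands did not pass either. Bmp4, a BMP of the muscle niche, lay at 5.41 to 5.80 on young and 5.05 to 5.22 on adult arrays, without overlap (difference -0.46 ± 0.19 SE, limma adjusted p = 0.105), and passed as lower with a variance trend and robust fit (0.0282) and with median scaling (0.0234). A second, far dimmer Bmp4 probe overlapped between the groups (-0.37 ± 0.30 SE, limma adjusted p = 0.361 in the fit of single probes). Gdf11, a close relative of myostatin, lay at -1.77, -0.03 and -1.0 in the young samples and at 0.38, 0.26 and 0.18 in the adult samples. The young value nearest to the adult ones was that of replicate 2, the sample of 2 months. Gdf11 differed by 1.21 ± 0.44 SE (limma adjusted p = 0.0813), and by 1.66 without young replicate 2 (adjusted p = 0.0201), where it passed, as it did with normexp and with a variance trend and robust fit. Bmp6 differed by 0.03 ± 0.23 SE and Bmp7 by 0.82 ± 0.60 SE. Mstn, myostatin itself, was not well above background on any of the 6 arrays (-7.67 to -6.35), so no fold is given and it was not tested.

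Promoter sequences are printed for 3 of the members past the threshold, those with the largest differences that have an entry in the RefSeq promoter table (build GRCm38.p6), to show what precedes genes that changed. Of the 8 members past the threshold 5 had an entry, and Tgfb3, Bmp2 and Id1 had none. Each line holds the 250 bases before the listed start, 5′ to 3′ on the gene's strand, and capitals mark matches on either strand to CAGAC, the core of the Smad-binding CAGA box.
Bmp5, chr9:75775115-75775364, plus strand: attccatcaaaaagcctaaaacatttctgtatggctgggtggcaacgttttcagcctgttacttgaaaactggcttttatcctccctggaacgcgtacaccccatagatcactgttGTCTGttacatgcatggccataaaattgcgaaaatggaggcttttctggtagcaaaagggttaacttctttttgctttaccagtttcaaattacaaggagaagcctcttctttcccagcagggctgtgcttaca
Tgfb2, chr1:186705990-186706239, minus strand: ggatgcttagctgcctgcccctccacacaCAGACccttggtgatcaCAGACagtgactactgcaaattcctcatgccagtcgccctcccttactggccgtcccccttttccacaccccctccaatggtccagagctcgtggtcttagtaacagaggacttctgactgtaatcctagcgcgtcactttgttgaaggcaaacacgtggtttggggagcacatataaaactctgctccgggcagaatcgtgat
Smad5, chr13:56702760-56703009, plus strand, the first of 3 listed starts: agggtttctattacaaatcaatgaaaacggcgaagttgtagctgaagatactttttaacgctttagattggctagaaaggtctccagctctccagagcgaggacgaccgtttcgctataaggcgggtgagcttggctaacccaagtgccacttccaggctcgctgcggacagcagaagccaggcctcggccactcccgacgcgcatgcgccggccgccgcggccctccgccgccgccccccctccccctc
The windows differ in composition, with 42.8% G and C before Bmp5, 53.6% before Tgfb2 and 60.0% before Smad5. CAGAC occurred 1 time before Bmp5, 2 times before Tgfb2 and 0 times before Smad5. Neither the Smad-binding palindrome GTCTAGAC nor the GC-rich Smad site GGCGCC was in these 3 windows, and none of the 3 motifs contains another. Over all 32851 windows of that length in the table, 42.2% held CAGAC, 0.167% GTCTAGAC and 9.59% GGCGCC. Of 31 members with an entry, 13 (41.9%) held CAGAC, 0 held GTCTAGAC and 7 (22.6%) held GGCGCC, each counted at the first listed start.

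No receptor passed the threshold with the settings used here. All 10 tested had negative differences, from -0.62 to -0.21 with a median of -0.40, and 2 had an unadjusted limma p under 0.05. Over all genes, 28.5% passed the adjusted threshold in either direction, and 13016 of 32103 had negative differences. Of protein-coding genes, 7988 of 15799 had negative differences. Groups did not overlap for Bmpr2, Acvr1 and Acvr1b, which were lower on every adult array (30% of the tested receptors, against 21.6% of all genes). Acvr1b, the type I activin receptor ALK4, read 0.66, 0.50 and 0.81 in the young samples and 0.33, 0.04 and -0.27 in the adult samples (-0.62 ± 0.22 SE, limma adjusted p = 0.0780). A dimmer Acvr1b probe overlapped between the groups (-0.58 ± 0.27 SE). Bmpr2, the type II BMP receptor, read 1.97, 1.72 and 1.84 against 1.46, 1.37 and 1.14 (-0.52 ± 0.19 SE, adjusted p = 0.0770). Acvr1, the type I BMP receptor ALK2, lay at 2.46 on each young array and at 1.98 to 2.19 on the adult ones (-0.38 ± 0.17 SE, adjusted p = 0.117). These 3 passed as lower with a variance trend and robust fit (adjusted p = 0.0463 for Acvr1b, 0.0346 for Bmpr2 and 0.0498 for Acvr1), and with median scaling, where Acvr2a passed too.

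The TGF-beta receptors overlapped between the groups. Tgfbr1, the type I receptor, differed by -0.44 ± 0.34 SE, and adult replicate 1 (1.44) lay above all young arrays (0.97 to 1.39). Tgfbr2, the type II receptor, differed by -0.26 ± 0.30 SE and Tgfbr3, the co-receptor betaglycan, by -0.26 ± 0.23 SE. Eng, the co-receptor endoglin of endothelial cells, differed by -0.49 ± 0.39 SE, with 1 low adult array (-1.60). Bmpr1a differed by -0.42 ± 0.31 SE, and the type II receptors Acvr2a and Acvr2b by -0.25 ± 0.19 SE and -0.21 ± 0.25 SE. Acvr2b was the only receptor whose sign turned with the scaling, to a positive value with quantile normalization and cyclic loess. Bmpr1b was not tested: its probes were well above background on at most 1 array of each group.

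Of the 7 extracellular regulators 1 fell (14.3%, against 8.43% of all genes) and 6 did not pass. Fstl1, a secreted glycoprotein with a follistatin domain that mesenchymal cells make, read 3.31, 3.42 and 3.73 in the young samples and 2.81, 2.65 and 2.55 in the adult samples. The groups were apart by more than the spread within either. Fstl1 was 1.76-fold lower in adult cells (-0.82 ± 0.20 SE, limma adjusted p = 0.0348, mm9 chr16:37836492-37836551). It passed in 9 of 19 alternatives, and with single arrays left out the adjusted p lay between 0.0609 and 0.0945 and the difference between -0.91 and -0.70.

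None of the ligand-trapping antagonists passed with the settings used here. Grem1, gremlin, which traps BMPs, lay at -6.63, -6.08 and -5.37 in the young samples and at -5.21, -4.25 and -4.67 in the adult samples. It was well above background on 1 young and 2 adult arrays only, so its size is uncertain (1.32 ± 0.40 SE, limma adjusted p = 0.0548), and its sign turned with quantile normalization (-0.39) and with normexp (-0.05), while it passed as higher with array weights (0.0385) and with scaling on the probes above background on every array (0.0432). Nog, noggin, lay between -1.51 and -1.30 on young and between -1.09 and -1.0 on adult arrays (0.38 ± 0.17 SE, adjusted p = 0.122), and turned to -0.16 with median scaling. Chrd, chordin, differed by 0.08 ± 0.25 SE, and Fst, follistatin, which binds activin and myostatin, by -0.65 ± 0.50 SE. Ltbp1, which tethers latent TGF-beta to the matrix, differed by -0.25 ± 0.20 SE and passed as lower with median scaling (-0.79, adjusted p = 0.0445). Bmp1, a metalloprotease that matures procollagens and cleaves chordin and is no BMP ligand, differed by -0.52 ± 0.19 SE (adjusted p = 0.0836), and passed as lower with the mean of its probes (0.0447), with a variance trend and robust fit (0.0232) and with median scaling (0.0180). All 3 Bmp1 probes were lower on every adult array than on any young one, and 1 of them passed in the fit of single probes (-0.86 ± 0.19 SE, adjusted p = 0.0336).

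Smad5 was the only Smad to pass, 1 of 6 tested (16.7%), against 8.43% called lower over all genes. Smad5, which carries BMP signals, read 1.81, 1.90 and 1.94 in the young samples and 0.99, 1.10 and 0.53 in the adult samples. The SD of the young arrays was 0.07, and all of them lay above the adult arrays, of which replicate 3 was the lowest. Smad5 was 2.02-fold lower in adult cells (-1.01 ± 0.21 SE, limma adjusted p = 0.0284, mm9 chr13:56843578-56843637). A second probe at chr13:56838912-56838971 gave -0.88 ± 0.18 SE (adjusted p = 0.0303 in the fit of single probes). Smad5 passed in 11 of 19 alternatives, but with each array left out in turn the adjusted p lay between 0.0502 and 0.0745 and the difference between -1.12 and -0.84.

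The other tested Smads had negative differences by the probe used for each gene, and none passed with the settings used here. Over all genes, 13016 of 32103 had negative differences. Smad1, the partner of Smad5 in BMP signalling, read 3.71, 3.71 and 3.65 in the young samples and 3.04, 3.16 and 3.33 in the adult samples (-0.51 ± 0.17 SE, limma adjusted p = 0.0684). Its far dimmer further probes overlapped between the groups (-0.75 ± 0.42 SE and -0.65 ± 0.66 SE). Smad2 and Smad3, which carry TGF-beta and activin signals, differed by -0.34 ± 0.18 SE and -0.57 ± 0.35 SE. Smad2 passed as lower with quantile normalization (-1.28, adjusted p = 0.0310), cyclic loess (-1.20, 0.0317) and median scaling (-0.88, 0.0242). Smad1 passed with a variance trend and robust fit (0.0174) and with median scaling (0.0140). For Smad3 adult replicate 3 (0.14) stood below the other 2 adult arrays (1.37 and 1.14). Smad6, an inhibitory Smad, differed by -0.17 ± 0.67 SE and ranged from -6.03 to -3.31 within the adult group alone. Smad7, the other inhibitory Smad, was well above background on 1 adult and 0 young arrays and was not tested. By that probe all 6 tested Smads were negative under all 6 scalings tried, this one included, and in the series matrix values.

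For Smad4, the shared partner of the other Smads, the direction depended on the probe. The brighter probe read 2.93, 3.17 and 3.28 in the young samples and 2.91, 2.65 and 2.19 in the adult samples (-0.54 ± 0.25 SE, limma adjusted p = 0.147 in the fit of single probes). The dimmer probe read 0.96, 1.31 and 1.19 against 2.08, 1.89 and 2.41, higher on every adult array (0.97 ± 0.22 SE, adjusted p = 0.0354). Of 12 members with more than 1 tested probe, Smad4 alone had probes of opposite sign, and the probes of the other 11 had the same sign. With the mean of its probes Smad4 differed by 0.21 (limma adjusted p = 0.384). Since the probes disagree, no direction is given for Smad4, whose brighter probe passed as lower with median scaling (adjusted p = 0.0289).

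**Figure D3:**
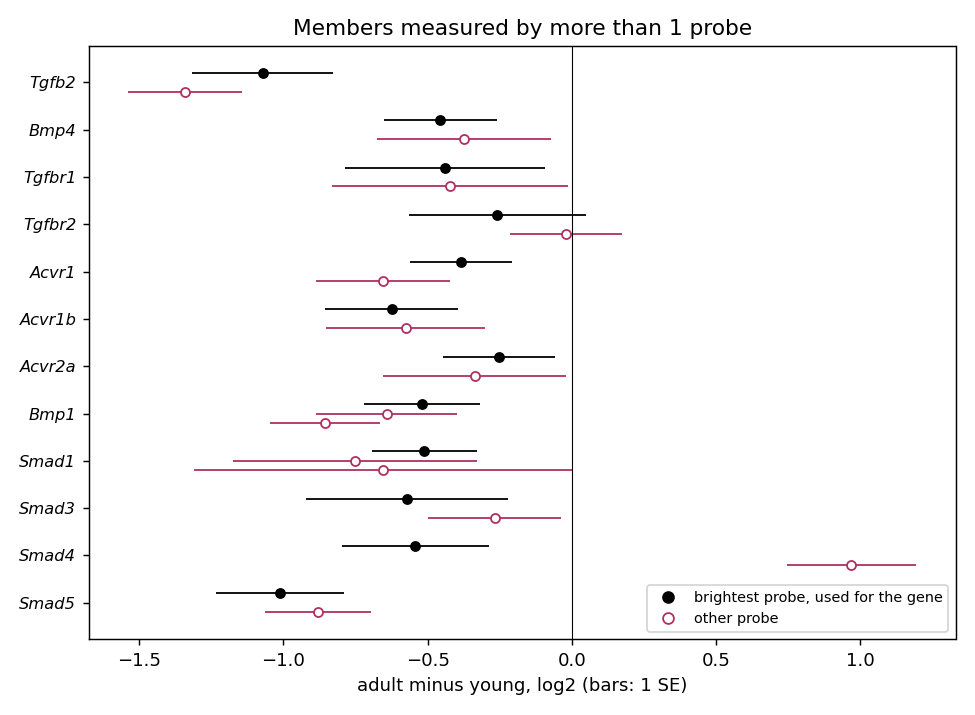
Difference between adult and young (x axis, log2, bars of 1 SE, n = 3 arrays each) for each probe of the 12 members with more than 1 tested probe. Black points are the brightest probe, used for the gene, and open red points the others. The Smad4 probes lie on opposite sides of 0, at -0.54 and 0.97, and those of Tgfb2 and Smad5 lie close together below -0.8.

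The Id genes, targets of BMP signalling that keep cells from differentiating, had positive differences by this scaling, and 1 of the 4 passed. Over all genes 20.1% were called higher, and 19087 of 32103 had positive differences. Id1 read -2.25, -2.44 and -1.91 in the young samples and -0.37, -1.04 and -1.27 in the adult samples. The groups were apart, with adult replicate 1 the highest. Id1 was 2.47-fold higher in adult cells (1.31 ± 0.30 SE, limma adjusted p = 0.0315, mm9 chr2:152563083-152563142). It passed in 8 of 19 alternatives, and in none of the 6 fits that leave out an array (adjusted p from 0.0568 to 0.0768, difference from 1.05 to 1.49). Id3 read 1.95, 1.73 and 1.70 in the young samples and 3.06, 2.36 and 2.19 in the adult samples (0.74 ± 0.28 SE, adjusted p = 0.0838). Id3 passed with cyclic loess, with normexp and with a variance trend and robust fit, and its difference was 0.20 with median scaling. Id2 (0.77 ± 0.33 SE) and Id4 (0.49 ± 0.50 SE) overlapped between the groups, and both turned negative with quantile normalization, cyclic loess and normexp, and Id4 with median scaling too.

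**Figure D4:**
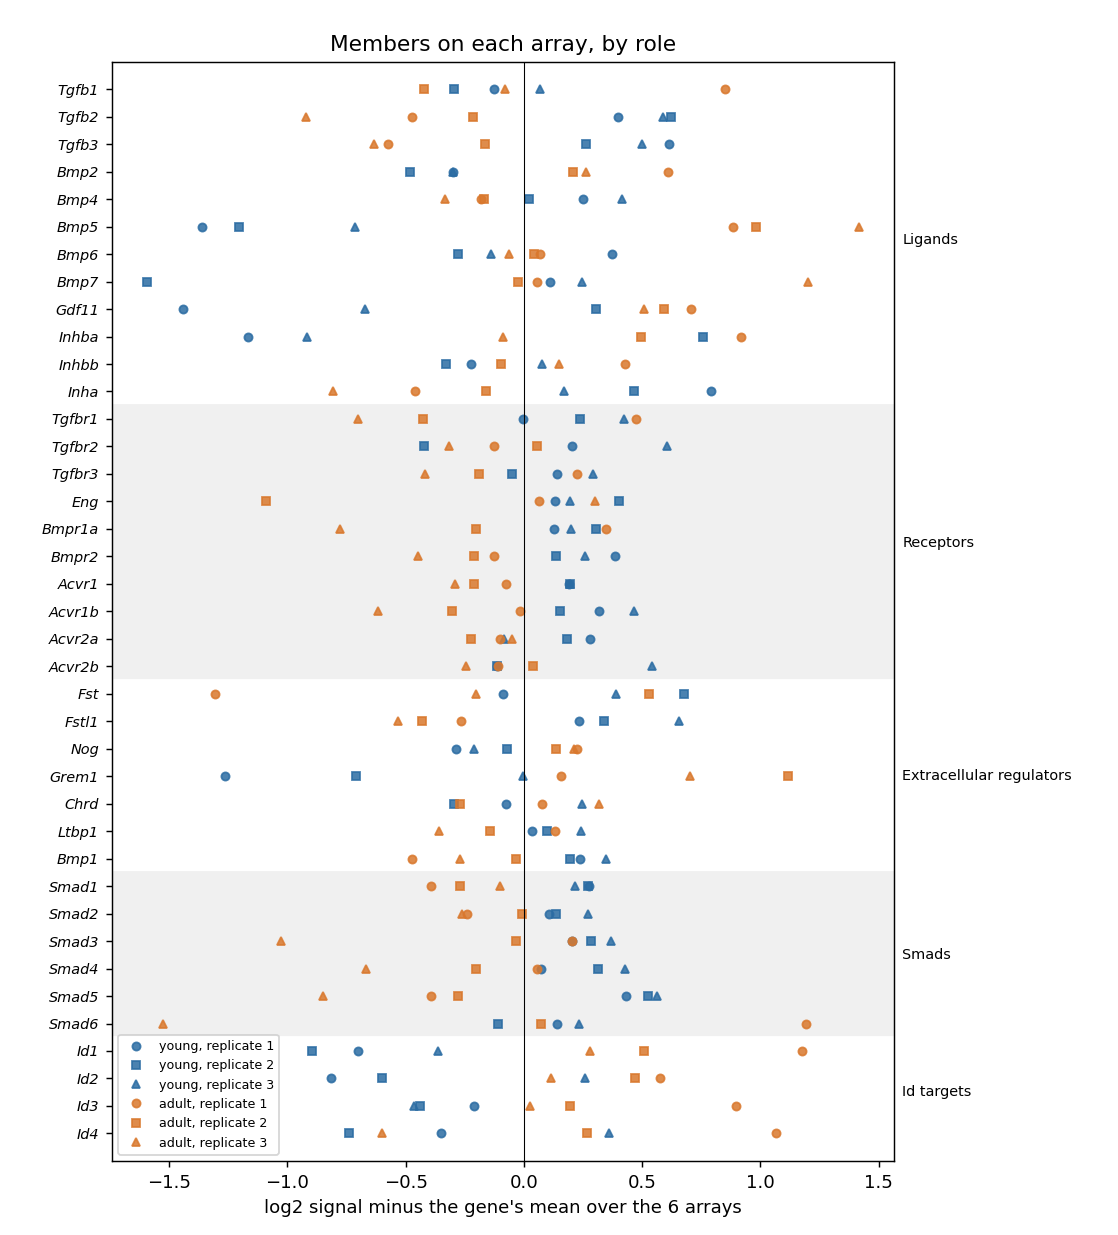
Level of each tested member on each array minus the gene's mean over the 6 arrays (x axis, log2), by role, with young arrays in blue, adult arrays in orange and circle, square and triangle for replicates 1, 2 and 3. By the probe used for each gene, groups do not overlap for 7 members higher and 14 lower in adult cells. Adult replicate 1 is the highest adult array for the 4 Id genes, and the adult arrays of Smad6 scatter more widely than the groups differ.

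Members were unevenly spread over signal strength. With genes cut into 4 quartiles by mean signal, 18 of the 39 members lay in quartile 4, the brightest, among them 5 of 10 receptors and 4 of 6 Smads. In quartile 4, 10.3% of all genes were called higher and 18.9% lower, and the median difference was -0.31, against -0.48 for its 18 members (0 higher, 4 lower). In quartile 2, which held Bmp5, Bmp2, Id1 and Inha among 6 members, 23.0% of all genes were higher and 3.41% lower. Within each row of the slide (young replicates 1 and 2 with adult replicate 1, and young replicate 3 with adult replicates 2 and 3) the 8 members past the threshold kept their sign, as did 21 of the other 31. For the 8 this was fixed in advance, since their groups do not overlap, and so it was for any of the 31 without overlap. With row as a block only Bmp5 passed (adjusted p = 0.0268).

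The differences depended on the scaling. Median scaling shifts every gene by the same amount, whereas quantile normalization moved members in both directions, such as Inha to -1.87 and Inhbb to 0.54. The median of all genes was 0.31 here, -0.06 with quantile normalization, 0.04 with cyclic loess and -0.23 with median scaling, where 15 members were lower and 1, Bmp5, higher. Signs turned under at least 1 of 6 scalings or in the series matrix values for 11 of the 39 members, none of them among the 8 past the threshold. Of the 11, Bmp6, Inhbb and Nog turned only with median scaling, where the common shift alone sets the sign.

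**Figure D5:**
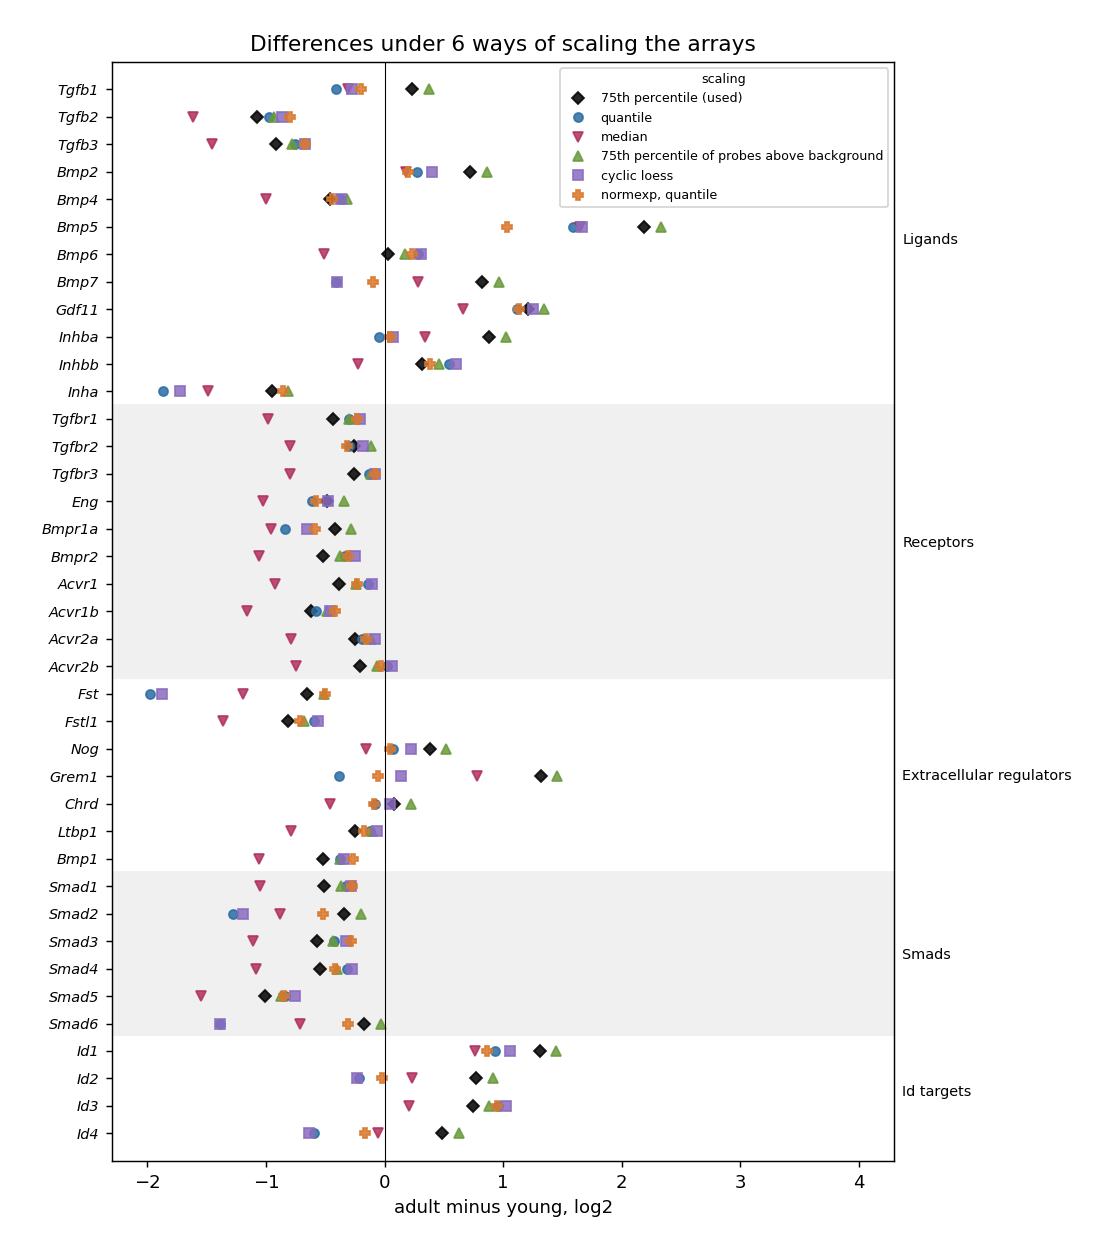
Difference between adult and young (x axis, log2) of each tested member under 6 ways of scaling the arrays, by role. Median scaling (downward red triangles), under which the median of all genes is -0.23, lies furthest left for most members. Bmp5 stays right of 1 and Tgfb2, Inha and Smad5 left of -0.7 under all 6.

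From a list of 88 further genes of the pathway, 77 were tested, of which 12 were higher (15.6%), 5 lower (6.49%) and 60 did not pass, against 20.1% higher and 8.43% lower over all genes. Their median difference was -0.03. Of 21 other ligands and receptors 8 were higher (38.1%) and 0 lower, against the same 20.1% and 8.43% of all genes, and the difference between these shares was not tested. The share of all genes called higher varied with signal strength, from 32% in quartile 1, the dimmest, to 10.3% in quartile 4. The quartiles of these ligands and receptors were not looked up. With quantile normalization 4 of the 77 further genes were higher. Bmp10, a BMP of the heart, was 3.48-fold higher (1.80 ± 0.30 SE, limma adjusted p = 0.0218) and lay at -0.95 to -0.04 on young and 0.95 to 1.46 on adult arrays. Gdf15, a stress-induced ligand, was 2.70-fold higher (adjusted p = 0.0246), and Nodal and its inhibitor Lefty2, ligands of the early embryo, were 2.19-fold and 2.08-fold higher. With single arrays left out, Bmp10 and Gdf15 each passed in 2 of 6 fits, Lefty2 in 1 and Nodal in 0, and the adjusted p reached 0.0724, 0.0766, 0.0754 and 0.0964. Nodal differed by 0.17 after normexp with quantile normalization.

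Of 23 other extracellular regulators 2 were higher and 2 lower (8.7% each), and of 19 other intracellular proteins 0 were higher and 1 lower (5.26%). Over all genes 20.1% were higher and 8.43% lower. Furin, the protease that cuts TGF-beta family precursors, was 1.65-fold lower, and Nbl1, a BMP antagonist, 1.54-fold lower (limma adjusted p = 0.0418 and 0.0475). Tgif2, a repressor that binds Smads, was 1.91-fold lower on the 5 arrays that gave a value, since its spot on adult array 1 was marked as an outlier (adjusted p = 0.0443). The higher regulators, Cer1 and Wfikkn2, were well above background on 1 and 2 of 3 young arrays, and their sizes are uncertain. Among 16 tested target genes 2 rose and 2 fell (12.5% each, against 20.1% higher and 8.43% lower over all genes). The 16 include the member Smad6, and Skil, which is also counted among the intracellular proteins. Msx2, a homeobox gene induced by BMPs, was 1.76-fold higher (adjusted p = 0.0353). Tgfbi, a matrix protein induced by TGF-beta, was 2.73-fold lower (0.0256) and Fn1, fibronectin, 2.43-fold lower (0.0466). Tgfbi passed in 1 of the 6 fits that leave out an array. Furin, Nbl1, Tgif2, Msx2 and Fn1 passed in 0 of them (adjusted p from 0.0634 to 0.145), and Msx2 differed by 0.04 after normexp with quantile normalization.

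All 9 markers of satellite cells tested, Pax7 and Itga7 among them, were well above background on all 6 arrays. In adult cells 5 were lower: Itga7, Vcam1, Calcr, Cdh15 and Itgb1. Pax7 overlapped between the groups and did not pass (-0.34 ± 0.25 SE, limma adjusted p = 0.304), and neither did Myf5, Cd34 and Sdc4. Their summed signal, as a multiple of each array's 75th percentile, was 74.2 to 82.6 in young and 42.6 to 63.5 in adult samples. In a bulk sample fewer cells of a type and less RNA per cell cannot be told apart. Marker sums were taken with this scaling only, and the part of scaling and signal strength in them was not tested. Markers of other cells were detected too: all 9 mural, 4 adipocyte and 3 tendon markers tested were well above background on all 6 arrays. Detection therefore does not tell these cell types apart. Markers of other cells also moved, where over all genes 20.1% were called higher and 8.43% lower. For fibro-adipogenic cells 6 of 7 listed genes were tested, 1 was higher and 2 lower, and the sum was 71.2 to 79.6 in young and 28.2 to 43.1 in adult samples. For tendon cells 3 of 4 were tested, 1 was lower, and the sum was 4.65 to 6.12 and 1.89 to 2.94. For mural cells 4 of 9 were higher and 1 lower, with sums of 197.1 to 297.3 and 263.5 to 339.0. For leukocytes 3 of 10 were higher, with sums of 219.6 to 425.1 and 378.4 to 402.7. All 10 had positive differences, as had 19087 of all 32103 genes. Emr1 was 4.98-fold and Cd79a 3.12-fold higher. Tyrobp was not well above background on any young array and was at least 31.25-fold higher. Of 8 endothelial markers 0 passed and the sums overlapped (18.2 to 28.4 and 17.9 to 25.5), of 4 adipocyte markers 2 were higher (6.81 to 10.6 and 3.38 to 16.6), and of 9 myofibre markers 1 was higher and 3 lower (8.96 to 13.0 and 6.07 to 7.27). Each sum is led by its brightest probes. The leukocyte sum came almost wholly from Itgam (log2 7.72 to 8.70), the mural sum mostly from Mcam (7.46 to 8.29). The fibro-adipogenic sum came mostly from Col3a1 (4.31 to 6.13). The sums therefore do not compare the amounts of different cell types, and the part of these cell types in the results was not tested.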

How the data were processed

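Each of the 6 samples was hybridised, with Cy3 label, to 1 single-colour Agilent array of 62976 spots on a shared slide. Per the file headers, the deposited intensity values are Feature Extraction signals, background-subtracted and detrended within the array, with surrogate values below background and no scaling between arrays. The series matrix held deposited log2 values, with a median of 7.56 in each column, that differed by at most 0.000106 from normexp (offset 50) with quantile normalization of the mean and background intensities. The steps behind them are not given in the labels or headers, and their scale, centring and direction follow from that match.

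From the intensities, 3671 control spots and outlier spots were left out, no spot was saturated, spots of a probe were averaged as log2 values, and the 75th percentile of each array was subtracted. Kept probes were well above background on 3 arrays or more and had a value on at least 2 arrays of each group. Each gene name took the probe with the highest mean. Adult was compared with young by limma 3.58.1 (lmFit, eBayes) in R 4.3.3, and p-values were adjusted by Benjamini-Hochberg over the 32103 genes, with 0.05 as threshold. The number of arrays limits the precision. The script was tested on simulated data. Of the 57 member probes, 55 had a RefSeq accession in the GRCm38.p6 table, each with the same symbol. Probe positions are mm9, as in the files, and the exon or UTR under a probe was not looked up.

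All members are accounted for, and of the other pathway genes at most 5 past the threshold in each direction, by smallest p, are named by rule. Cer1, Wfikkn2 and Bmp8b were picked after their values were seen, and 1 target gene is counted but not reported here by name. The members, lists, tests and alternatives were chosen with earlier results of these data known. Alternatives covered scaling, background correction, the filter, the probe, the variance model, array weights, replicate number and slide row as blocks, and leaving out each array. Between groups, samples that share a number deviated from their group means with correlations of -0.0039, -0.093 and -0.14. Samples with different numbers were not compared in this way, so a pairing by number was not tested.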

Additional observations from a re-analysis of the deposited data

How the results depend on the processing

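The signs of the 8 members past the threshold held in all 19 alternatives, while their calls did not: Bmp5 passed in 17, Tgfb2 and Smad5 in 11, Tgfb3 in 10, Fstl1 in 9, Id1 in 8, Inha in 7 and Bmp2 in 4. Only the scalings and the background correction could have turned these signs. The other alternatives reused the same values, in which the groups of the 8 do not overlap. For the 8, the mean of probes added only the further probes of Tgfb2 and Smad5, on which the groups do not overlap either. Normexp with quantile normalization and the series matrix values are nearly identical but count separately among the 19. With quantile normalization 2870 genes of all were higher, as were 1 member and 4 other pathway genes, and 3 other pathway genes were lower. With median scaling 3449 genes were higher and 8812 lower, 1 member was higher and 15 lower, the member median was -0.80, and 3 other pathway genes were higher and 23 lower. Scaling on those probes that were above background on each of the arrays left 1783 genes lower and 1 other pathway gene lower. Cyclic loess left 3124 genes higher, and 4 other pathway genes higher and 3 lower. Normexp with quantile normalization and the series matrix each gave 4118 genes and 9 other pathway genes lower. Without a filter on dim probes 1 other pathway gene was lower, and with probes above background on all 6 arrays 10 were. With a variance trend and robust fit 4433 genes, 10 members and 12 other pathway genes were lower. With the slide row as a block 1199 genes were lower, 1 member was higher and 0 lower, and 5 other pathway genes were higher and 1 lower. Bmp8b, called higher at 0.88, reversed to -0.60 with quantile normalization, -0.32 with cyclic loess and -0.17 with normexp and in the series matrix. For all of these the cause was not tested.

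With replicate number as a block, limma called 0 genes higher and 0 lower, and so 0 members and 0 other pathway genes, although 12740 genes and 11 members had an unadjusted p under 0.05. Whether the numbers pair samples was not tested. Leaving out 1 array at a time gave 263 (without adult replicate 3) to 6430 (without young replicate 2) genes higher and 17 to 1259 lower, 0 to 3 members higher and 0 to 1 lower, a member median of -0.35 to -0.14, and 0 to 8 other pathway genes higher and 0 to 1 lower. Slide as a block was not run, since all arrays share 1 slide. With 3 arrays a group, dim probes such as those of Mstn, Smad7 and Bmpr1b could not be compared.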
